A study of Mus musculus with 8 samples.

Results

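Control explants of embryonic mouse lung were compared after 24 h and after 9 h in culture, by setting the 1 array of 24 h controls against the 3 arrays of 9 h controls. These are 4 of the 8 arrays of the series, and the comparison covered all 24304 genes that could be named on them. Control lungs were isolated at E12.5 from the strain C57bl/6J, laid on filters in medium with serum, and given vehicle alone. The labels name PBS as vehicle, whereas the methods name PBS or DMSO. The 24 h control sample is a pool of lungs, so it has no replicate error of its own (n = 1), and the 9 h samples are given as replicates 1 to 3 (n = 3). The other 4 arrays hold lungs of the same stage and strain cultured with 10 µM IQ1, a small molecule used to keep β-catenin from its coactivator EP300, at 24 h (1 pooled sample) and at 9 h (3 replicates). The 24 h and the 9 h cultures were separate experiments, so time in culture and experiment cannot be told apart in any value given here.

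At this stage the lung is a branching epithelial tree within mesenchyme, covered by mesothelium and entered by vessels, blood cells and the first macrophages. Explants keep these tissues together but lose circulation, and draw nutrients, lipids and growth factors from the medium. Cells make cholesterol through the mevalonate pathway, whose genes are switched on together by the transcription factor SREBP2 when sterols in the membrane of the endoplasmic reticulum are low. The related factor SREBP1 acts in the same way on genes of fatty acid synthesis. All RNA came from whole homogenised organs, so fewer cells of a type and less RNA per cell cannot be told apart in any of the values.

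Every level is a quantile-normalised log2 intensity, on which 1 unit is a doubling, and every array has the same median, 6.29, and lower quartile, 4.34. Levels are therefore relative to the other genes of an array, and no gene's level can be set against another's. Levels near or below the lower quartile cannot be told from background, so the size of a difference that reaches down to them is not exact. The 9 h control replicate 2 stood apart: its correlation with the other arrays over all genes lay between 0.583 and 0.602, whereas the others correlated with each other at 0.953 to 0.982. Each comparison was therefore fitted without it (7 arrays) and with it (8 arrays), and a difference without further remark is that of the 7 arrays. A gene is read from its brightest spot, and the difference from the median over its spots (the spot median) is added beside a difference where it was over 1.5 times larger or smaller. With replicate 2 the median difference over all genes was 0.15, and without it 0.01. Between the 9 h replicates 1 and 3 a gene differed by a median of 0.24, and between 24 h and the mean of these 2 by 0.38. Markers of lung were at high level at both times. Nkx2-1, the transcription factor that specifies lung epithelium, had 11.42 at 24 h, against 10.99, 9.19 and 11.06 at 9 h. Foxf1 of lung mesenchyme had 10.46, against 10.87, 9.66 and 10.56. Sex-linked transcripts set the 9 h replicates apart from each other: Xist, expressed from the inactive X chromosome, had 12.95 at 24 h, against 5.04, 13.51 and 14.01 at 9 h, and the Y-linked Eif2s3y had 9.83, against 10.65, 3.15 and 6.34. The 24 h pool was high for both.

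Few genes passed the test across all genes, limma's moderated test with Benjamini-Hochberg adjustment. With 7 arrays 2 of 24304 genes passed (0.00823%), Snhg12 on the higher and Ifi204 on the lower side. With all 8 arrays 0 genes passed (0%), the lowest adjusted p being 0.925, and 427 had an unadjusted p below 0.05. The spread in these fits came from replicates at 9 h only, those of IQ1 explants as well as of controls. With 7 arrays it rested on 3 residual degrees of freedom, of which the controls gave 1. In a one-sided exact permutation test 1 array against 3 could not go below p = 0.25. With 7 arrays only 2 controls remain at 9 h, and that limit is higher still. A fit of the 12152 genes above the median gene mean alone gave 41 genes at an adjusted p under 0.05 (0.337%), 13 higher and 28 lower at 24 h. The gene mean runs over all 8 arrays, so high values at 24 h could bring a gene into that fit. Adjusting the fit over all genes for the same 12152 genes gave 1. At an unadjusted p under 0.05 the 7-array fit held 1303 genes that were higher (5.36% of those tested) and 1242 that were lower (5.11%). These 2 shares are the background for the gene lists below. The 24 h value lay above all 3 values at 9 h in 27.2% of genes and below all 3 in 18.5%.

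Genes of sterol synthesis were lower at 24 h. Of the 24 genes listed, 20 were measured, and 18 of these were lower, with a median difference of −2.07, a 4.19-fold lower level. At an unadjusted p under 0.05, 17 of the 20 were lower and 0 higher, where the share over all genes was 5.11%, and 17 lay below all 3 values at 9 h (18.5% of all genes). In the fit of brighter genes 11 of the 19 that entered it passed, against 0.337% of all genes in it. With replicate 2 the median was −1.77 and 14 were lower at an unadjusted p under 0.05. Leaving out 1 array at a time from the 7 gave 15 to 18 such genes and medians of −2.09 to −2.03.

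The difference ran along the pathway. Hmgcs1, which makes the HMG-CoA from which mevalonate is formed, had 12.11 at 24 h, against 14.25, 14.28 and 14.27 at 9 h. This is 4.45-fold lower (−2.15, SE 0.29, adjusted p = 0.0299 in the limma fit of brighter genes), and the 3 values at 9 h lay close together. Mvd, the decarboxylase at the end of the mevalonate steps, had 7.09 at 24 h, against 10.54, 9.07 and 10.17 at 9 h, a 9.62-fold lower level (SE 0.36 on the log2 scale, adjusted p = 0.0234 in that fit). Among enzymes of the farnesyl and squalene steps, Fdps differed by −2.83 (SE 0.37), Fdft1 by −1.77 (SE 0.28), Sqle by −2.23 (SE 0.29) and Lss by −2.45 (SE 0.33). All 4 were below the 9 h values of all 3 replicates, which the rule that named Fdps, Sqle and Lss required of these. Further down, in the steps from lanosterol to cholesterol, Hsd17b7 had 7.56 at 24 h, against 10.52, 9.33 and 10.28 at 9 h (−2.84, SE 0.30, adjusted p = 0.0234 in the fit of brighter genes). Sc5d had 8.13, against 10.45, 8.42 and 10.43, so here replicate 2 came close to the 24 h value. Msmo1 (−2.07) and Dhcr7 (−2.06) also passed in that fit, while Nsdhl (−3.47, spot median −2.15, adjusted p = 0.0666) and Cyp51 (−1.80, adjusted p = 0.0594) did not.

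Regulators of the pathway were lower as well. Insig1, which holds the SREBP escort protein in the endoplasmic reticulum when sterols are plentiful and is itself a target of SREBP, had 6.45 at 24 h, against 9.49, 9.31 and 9.41 at 9 h (−3.00, SE 0.38, adjusted p = 0.0299 in the fit of brighter genes). The 3 values at 9 h lay close together and well above the 24 h value. Stard4, a carrier of cholesterol between membranes, differed by −1.72 (unadjusted p = 0.0079). Srebf2, which encodes SREBP2, had 9.11 at 24 h, against 10.58, 8.03 and 9.85 at 9 h, so the groups overlapped through replicate 2 (−1.10, spot median −1.85). Idi1, the isomerase of isopentenyl diphosphate, had 12.17 at 24 h, against 13.02, 14.12 and 13.06 at 9 h (−0.87, unadjusted p = 0.0811). The 2 measured genes that were not lower were the kinase gene Mvk (0.19) and the sterol isomerase gene Ebp (0.27). With the median over the spots of a gene in place of its brightest spot, both of these were below 0.

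**Figure D1:**
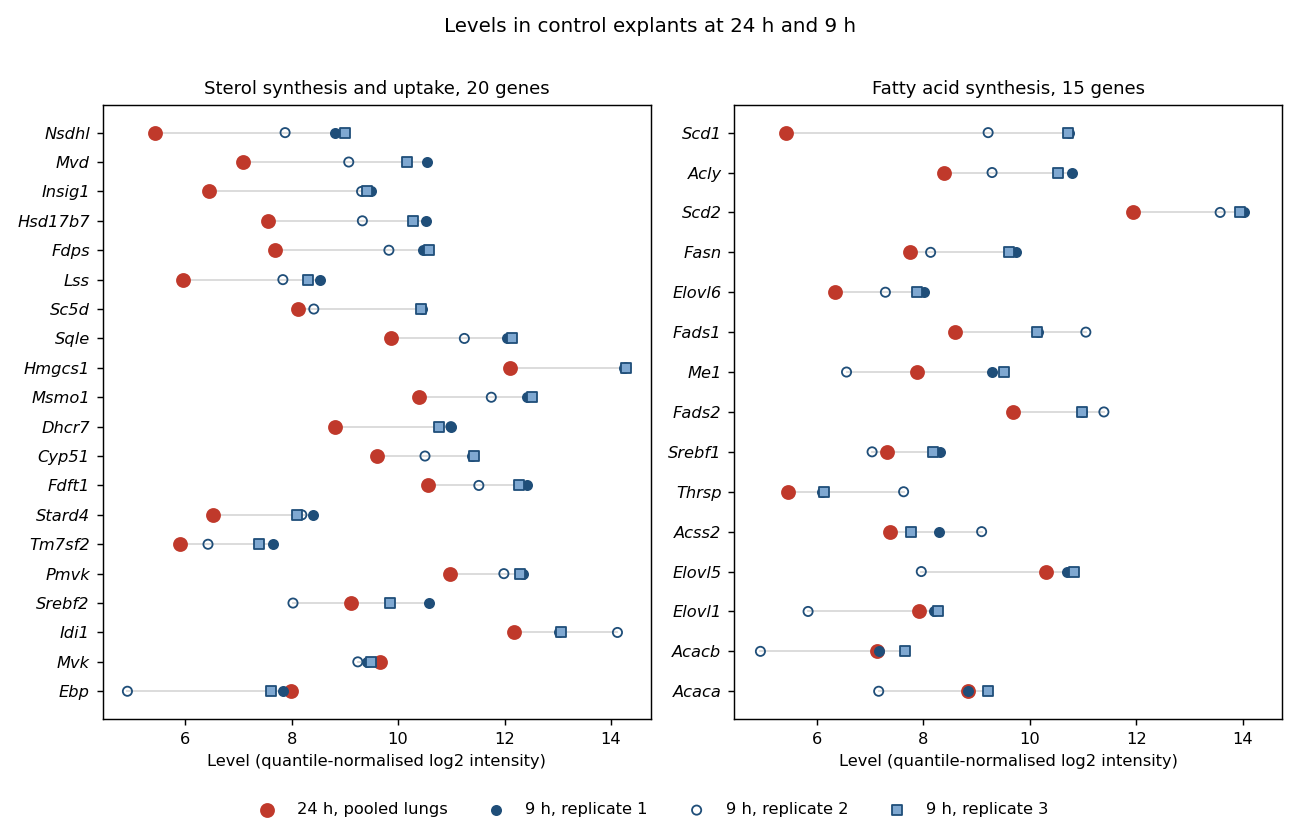
Levels (x axis, quantile-normalised log2 intensity) of the 20 genes of sterol synthesis and uptake (left) and the 15 genes of fatty acid synthesis (right) in control explants, 1 point per array: the 24 h pool in red, the 9 h replicates 1, 2 (open) and 3 in blue. In 17 of the 20 sterol genes and 9 of the 15 fatty acid genes the red point lies left of all 3 blue ones.

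The promoters of the sterol genes are shown because these genes were lower together. Promoters came from the RefSeq table (GRCm38.p6), from which 1 mouse chromosome was left out. Of the 20 measured genes 16 had a promoter there. All 16 held CCAAT, the letters bound by the factor NF-Y, on either strand in the 250 bases before the start. Of 19217 measured genes with a promoter in the table, 38.8% held it. In fatty acid synthesis 8 of 12 did. The 16 sterol genes with CCAAT include Mvk and Ebp, which were not lower at 24 h by their brightest spots. TCACNCCAC, a form of the sterol regulatory element, was found in 1 of the 16, Hmgcs1, and in 1.2% of all these genes. These are matches of letters, chosen after the values were seen. The 250 bases before the start follow for 4 genes, 5′ to 3′ on the gene's own strand, with CCAAT (or ATTGG, the same letters on the other strand) and TCACNCCAC in capitals. They lie at chr13:119690101-119690350 (plus strand, Hmgcs1), chr1:169969206-169969455 (minus strand, Hsd17b7), chr8:122443423-122443672 (minus strand, Mvd) and chr5:28071162-28071411 (plus strand, Insig1).
Hmgcs1: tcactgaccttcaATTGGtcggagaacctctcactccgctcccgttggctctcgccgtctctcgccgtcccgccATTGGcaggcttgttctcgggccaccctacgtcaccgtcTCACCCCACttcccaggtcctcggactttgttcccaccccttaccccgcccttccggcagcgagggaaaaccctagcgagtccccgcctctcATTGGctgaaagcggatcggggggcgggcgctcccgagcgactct
Hsd17b7: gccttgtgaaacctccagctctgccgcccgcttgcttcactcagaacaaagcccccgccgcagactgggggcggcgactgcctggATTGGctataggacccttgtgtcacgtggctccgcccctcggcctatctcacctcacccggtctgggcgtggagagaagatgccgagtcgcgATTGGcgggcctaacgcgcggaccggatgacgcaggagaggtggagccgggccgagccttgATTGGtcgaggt
Mvd: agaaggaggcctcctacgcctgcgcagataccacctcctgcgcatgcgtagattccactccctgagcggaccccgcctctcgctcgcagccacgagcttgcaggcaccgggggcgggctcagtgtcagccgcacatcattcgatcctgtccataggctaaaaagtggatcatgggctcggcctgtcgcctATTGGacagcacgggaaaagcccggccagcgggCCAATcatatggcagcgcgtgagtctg
Insig1: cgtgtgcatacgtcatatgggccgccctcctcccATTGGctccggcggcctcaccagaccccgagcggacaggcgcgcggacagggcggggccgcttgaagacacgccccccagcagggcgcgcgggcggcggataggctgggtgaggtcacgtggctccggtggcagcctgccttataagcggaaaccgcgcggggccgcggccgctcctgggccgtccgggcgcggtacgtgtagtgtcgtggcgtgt
In these windows CCAAT occurred 3 times before Hmgcs1, 3 times before Hsd17b7, 2 times before Mvd and 1 time before Insig1.

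Fatty acid synthesis followed the same direction. All 15 measured genes were lower at 24 h, with a median difference of −1.29, a 2.45-fold lower level. At an unadjusted p under 0.05, 9 were lower, and 9 lay below all 3 values at 9 h. With replicate 2 kept 4 of the 15 were higher and 11 lower, 6 were lower at an unadjusted p under 0.05, and the median was −1.16. Those 4 were Acaca, Acacb, Elovl1 and Elovl5. Scd1, the desaturase that makes oleate from stearate, had 5.42 at 24 h, against 10.74, 9.22 and 10.71 at 9 h. The intensity was 39.5-fold lower (SE 0.54 on the log2 scale, adjusted p = 0.0234 in the limma fit of brighter genes), so that a gene well above the median of its arrays at 9 h was below it at 24 h. Scd2, a second desaturase, had 11.95, against 14.01, 13.57 and 13.95 (−2.03, SE 0.32, adjusted p = 0.0449 in that fit). Acly, which supplies acetyl-CoA from citrate, differed by −2.27 and the fatty acid synthase gene Fasn by −1.92. The elongase gene Elovl6 differed by −1.60, and the desaturase genes Fads1 and Fads2 by −1.55 and −1.29. All 5 had an unadjusted p under 0.05, none passed the adjustment, and all 5 lay below the 9 h values of every replicate. Srebf1, which encodes SREBP1, had 7.32 at 24 h, against 8.31, 7.04 and 8.18 at 9 h, and overlapped through replicate 2.

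Genes induced by low oxygen, together with glycolysis, leaned the same way with smaller sizes. Of 35 genes measured 29 were lower, with a median of −0.48, and 10 were lower and 1 higher at an unadjusted p under 0.05. Without 9 h replicate 1 the 10 became 5, and with replicate 2 kept they became 2. Below all 3 values at 9 h lay 8 of the 35 (18.5% of all genes), and above all 3 lay 4 (27.2%). With replicate 2 kept the median was −0.33. With replicate 2 kept and replicate 1 left out it was 0.09, with 18 genes higher and 17 lower. P4ha1 and P4ha2 encode the prolyl hydroxylase that collagen needs to fold. P4ha1 had 6.72 at 24 h, against 8.85, 10.95 and 8.27 at 9 h (−1.84), and P4ha2 had 5.81, against 7.71, 5.60 and 7.52 (−1.81). P4ha1 lay below all 3 replicates, P4ha2 only below replicates 1 and 3. Slc16a3, the exporter of lactate, had 5.10, against 7.33, 6.62 and 6.75 (−1.94, unadjusted p = 0.0121). Pfkfb4, which sets the pace of glycolysis, differed by −1.71 (spot median −1.05), Ddit4, an inhibitor of mTOR signalling, by −1.38, and the glucose transporter gene Slc2a1 by −1.16. In these 3 replicate 2 was below the 24 h value. The 1 gene that was higher at an unadjusted p under 0.05 was Car9, a carbonic anhydrase of hypoxic cells, with 9.09 at 24 h, against 8.29, 6.15 and 8.37. Txnip, an inhibitor of glucose uptake that was not listed and was picked after its values were seen, had 9.56, against 6.83, 6.94 and 7.35 (2.47, SE 0.49, unadjusted p = 0.00223). ACGTG, the core of the element bound by hypoxia-inducible factors, was in the 250 bases before 20 of 34 listed genes, and before 20.1% of all measured genes with a promoter.

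Among genes that were higher at 24 h, the metallothioneins led their list. These small proteins bind zinc and copper and are induced by metals and glucocorticoids. Mt2 had 11.66 at 24 h, against 9.33, 5.65 and 8.98 at 9 h, a 5.70-fold higher level (SE 0.31 on the log2 scale, adjusted p = 0.0259 in the limma fit of brighter genes). Mt1 had 9.93, against 8.39, 5.01 and 7.86 (1.81, spot median 0.96, unadjusted p = 0.00204). The other 7 members of the list had unadjusted p-values above 0.05, and the list's median was −0.03. Over all 8 arrays that median was 0.92 and 1 member had an unadjusted p under 0.05.

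Immediate early genes, which serum, stretch and handling switch on within minutes, were higher at 24 h in 23 of 30. The median difference was 0.33, and 6 were higher and 0 lower at an unadjusted p under 0.05 (5.36% of all genes were higher). The median was 0.16 without 9 h replicate 3, 0.46 without replicate 1 and 0.73 with replicate 2 kept. Ccn1, which encodes a secreted matrix protein and is a target of YAP and SRF, had 10.07 at 24 h, against 7.65, 4.35 and 7.71 at 9 h (2.38, SE 0.38, adjusted p = 0.0498 in the fit of brighter genes). Egr1, a zinc finger factor induced by ERK signalling, had 12.33, against 10.71, 8.31 and 10.64 (1.65, SE 0.29). Fos had 6.88, against 4.74, 4.13 and 4.62, and so stood at 24 h near the median of its array and at 9 h near the lower quartile. Nr4a1 (1.30), Egr2 (1.38) and Fosb (1.28, spot median 0.69) were the other 3, and each of the 6 lay above all 3 values at 9 h, which the naming rule required of Ccn1. Leaving out 1 array at a time gave 4 to 6 such genes, and with replicate 2 there were 3.

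Genes of macrophages were higher in 19 of 22, with a median of 0.53, and 16 of the 22 lay above all 3 values at 9 h (27.2% of all genes). At an unadjusted p under 0.05, 7 were higher and 1 lower. Without 9 h replicate 3 the 7 became 2, without replicate 1 they became 4, without any 1 of the IQ1 arrays at 9 h 4 or 5, and with replicate 2 kept 1. Pf4, a chemokine gene of platelets and fetal macrophages, had 9.45 at 24 h, against 7.93, 6.20 and 7.66 at 9 h, a 3.14-fold higher level. Adgre1, which encodes the macrophage antigen F4/80, had 7.73, against 6.48, 3.24 and 6.24 (1.37). C1qb and C1qc, subunits of the first complement component, differed by 0.98 and 1.46 (spot median of C1qc 0.87), and the fractalkine receptor gene Cx3cr1 by 1.22. The 1 gene on the lower side was the transglutaminase gene F13a1, with 5.08, against 7.30, 4.12 and 6.52 (−1.83, spot median −0.55). Csf1r, the receptor on which macrophages depend, had 13.73, against 13.64, 13.38 and 13.64, a difference of 0.09 (spot median 0.49).

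**Figure D2:**
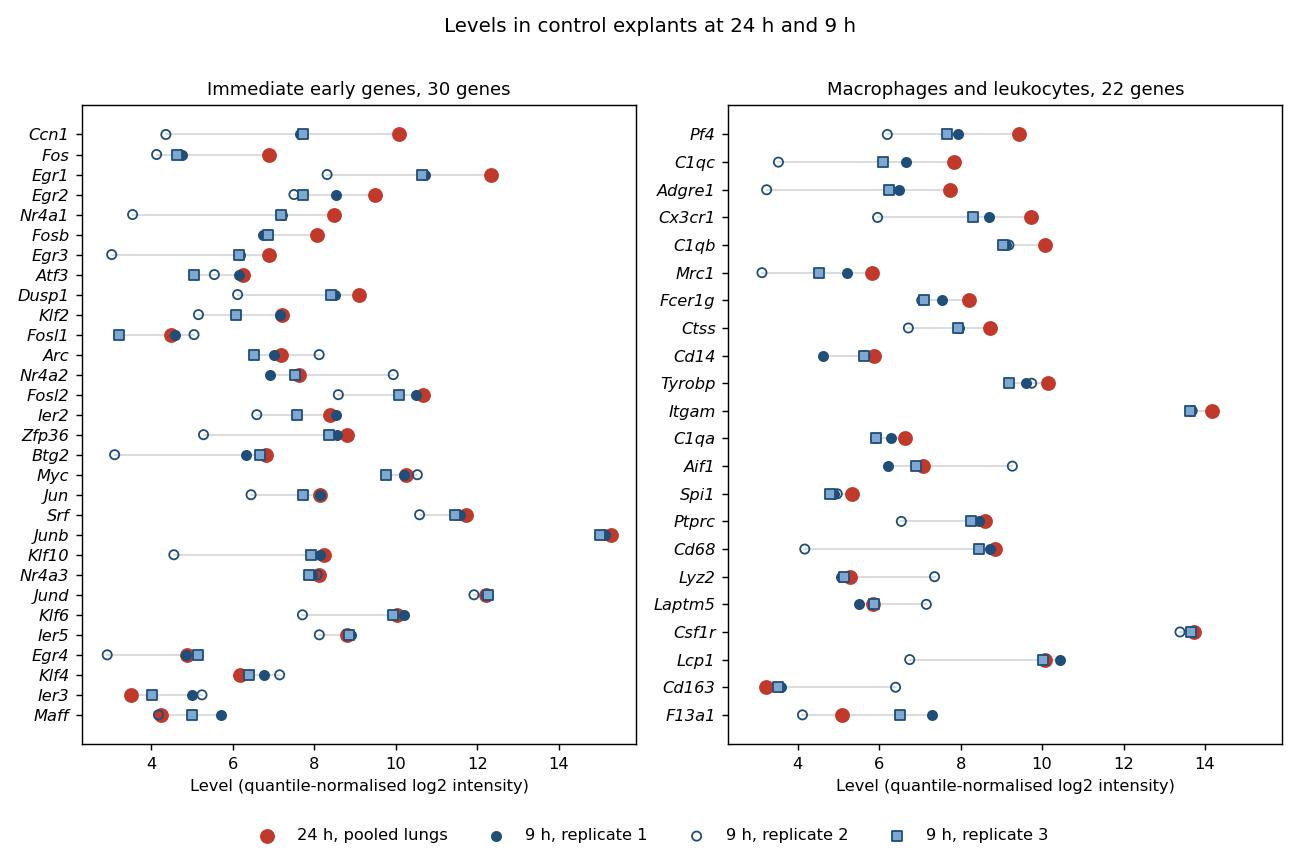
Levels (x axis, quantile-normalised log2 intensity) of 30 immediate early genes (left) and 22 genes of macrophages and leukocytes (right) in control explants, 1 point per array: the 24 h pool in red, the 9 h replicates 1, 2 (open) and 3 in blue. The red point lies right of all 3 blue ones in 18 of the 30 and 16 of the 22 genes.

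In blood cells, 12 of 17 erythroid genes were lower and 5 higher, with a median of −0.22 (−0.04 with replicate 2 kept). The main globin genes at this stage differed little, Hba-a1 having 14.38 at 24 h, against 14.60, 13.72 and 14.60 at 9 h, and the embryonic Hbb-y 14.93, against 15.15, 14.45 and 15.11. The adult β-globin genes Hbb-bt and Hbb-b1 differed more and in opposite directions, by 2.35 and −2.35, and their levels are given further below. Slc4a1, the anion exchanger of the red cell membrane, had 8.28, against 10.17, 8.90 and 10.42 (−2.01, unadjusted p = 0.00446).

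Cartilage genes were measured in 14, of which 9 were lower and 5 higher, with a list median of −0.13, and 4 were lower and 0 higher at an unadjusted p under 0.05. With replicate 2 kept that count was 0 and the median −0.53. Matn1, a matrix protein of tracheal and other cartilage, had 3.34 at 24 h, against 5.88, 3.32 and 5.43 at 9 h, so replicate 2 matched the 24 h value. Col9a1 had 6.77, against 8.72, 7.11 and 8.50 (−1.84, spot median −0.99), and Col2a1, the main collagen of cartilage, had 10.42, against 11.74, 12.501 and 11.17 (−1.03). Both lay below every replicate. Without 9 h replicate 1 the 4 became 2. Col11a1, a fibrillar collagen gene from the list of collagens, passed in the fit of brighter genes, with 9.19 at 24 h, against 11.26, 10.41 and 11.42 at 9 h (−2.15, SE 0.30, adjusted p = 0.0349). The spot median was smaller, −0.70.

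Retinoic acid is made from vitamin A and patterns the lung bud, and its own level is set by the enzymes below. Of 16 measured genes 12 were lower, with a median of −0.51, and 4 were lower at an unadjusted p under 0.05. That count was 2 without 9 h replicate 1 or without 9 h replicate 3, and 0 with replicate 2 kept. Dhrs3, which turns retinaldehyde back to retinol, had 9.31 at 24 h, against 10.68, 9.53 and 10.85 at 9 h (−1.46). Cyp26b1, which degrades retinoic acid, had 6.63, against 7.59, 6.51 and 8.09 (−1.21), and Crabp1, which binds it in the cytoplasm, differed by −1.21. Lrat, which stores retinol as esters, was not on the list and was picked after its values were seen. It passed in the fit of brighter genes (−2.35, SE 0.33, adjusted p = 0.0364), with 5.48 at 24 h, against 8.06, 5.97 and 7.58 at 9 h.

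Signals between mesenchyme and epithelium differed in single genes more than as lists. Bmp5, a BMP ligand, had 11.26 at 24 h, against 9.18, 6.69 and 9.12 at 9 h, a 4.32-fold higher level (SE 0.28 on the log2 scale, adjusted p = 0.0264 in the limma fit of brighter genes). The median over its 4 spots gave a difference of 0.63, against 2.11 for the brightest one. Grem1, a BMP antagonist, had 6.05, against 5.17, 3.24 and 4.17 (1.38, unadjusted p = 0.0223). Inhba, a subunit of activin, had 9.01, against 10.54, 6.76 and 10.38, and Smad7, an inhibitor of TGF-β signalling, had 5.46, against 7.09, 3.65 and 7.10. In both, replicates 1 and 3 were above the 24 h value and replicate 2 below it. Hhip, the Hedgehog antagonist of lung mesenchyme, had 11.29, against 10.42, 7.22 and 10.30 (0.93, unadjusted p = 0.0159). In the mesenchyme 14 of 18 transcription factors were lower, with a median of −0.37, and 2 had an unadjusted p under 0.05, Twist1 (−1.99) and Prrx1 (−1.18). With replicate 2 kept the median of that list was 0.10. Twist1 had 3.13 at 24 h, below the lower quartile of the arrays, against 4.76, 5.92 and 5.46 at 9 h. Prrx1 had 8.15, against 9.38, 6.21 and 9.28, so replicate 2 was below the 24 h value. Fgf10 itself, the mesenchymal growth factor that guides the buds, had 8.80 at 24 h, against 9.38, 7.29 and 9.37 at 9 h.

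Epithelial lists differed in how many of their genes had an unadjusted p under 0.05. Of 17 factors of the distal tips 0 had an unadjusted p under 0.05, with a median of −0.02 (1.01 with replicate 2 kept), and of 19 general epithelial genes likewise 0. Etv4 and Etv5, transcription factors induced by FGF10 in the tips, had 11.51 and 10.92 at 24 h. At 9 h Etv4 had 10.68, 7.76 and 10.60, and Etv5 had 10.15, 8.31 and 10.38. Both lay above all 3 values at 9 h, with unadjusted p-values of 0.125 and 0.145. In the list of surfactant and distal differentiation, 2 of 20 genes were higher and 4 lower at an unadjusted p under 0.05. Over all genes these shares were 5.36% and 5.11%. With replicate 2 kept 2 genes of the list were higher and 1 lower. Sftpc, the surfactant protein made by distal epithelium, had 9.15 at 24 h, against 10.41, 9.77 and 10.31 at 9 h (−1.22, unadjusted p = 0.00782), and Sftpa1 had 4.63, against 6.06, 4.91 and 5.60 (−1.20). Both lay below all 3 replicates. Cd36, which takes up fatty acids, had 8.53, against 4.87, 4.35 and 4.84, a log2 difference of 3.68 (unadjusted p = 0.00031) whose 9 h values lay near the lower quartile, and the chemokine gene Cxcl15 had 7.58, against 5.45, 5.85 and 5.67 (2.03). Of the 38 measured genes in the study's FGF10 signature, which was chosen on other samples, 19 were higher and 19 lower, and 5 were higher and 2 lower at an unadjusted p under 0.05. Over all 8 arrays 1 of the 38 had such a p. Slco2a1, a prostaglandin transporter, differed by 1.67 (spot median 0.45) and the kinase anchor gene Akap5 by 1.36.

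Lists of dividing cells had medians near 0. The S phase genes had a median of −0.09 over 23, and the G2/M genes −0.09 over 23, with 1 and 0 higher and 0 and 1 lower at an unadjusted p under 0.05. With replicate 2 kept the medians were 0.22 and 0.31. Pcna, the sliding clamp of DNA replication, was that 1 gene of the S phase list, with 14.63 at 24 h, against 13.32, 13.27 and 13.29 at 9 h (1.32, SE 0.33). Odc1, the first enzyme of polyamine synthesis, had 12.54, against 10.99, 10.09 and 10.87 (1.61, spot median 0.58, unadjusted p = 0.00152). Ribosomal proteins (median 0.07 over 23), genes of ribosome biogenesis (0.03 over 23) and endothelium (0.20 over 23) held 0, 1 and 2 genes at an unadjusted p under 0.05. The 2 endothelial ones were Erg (−1.43) and Ets1 (−1.06, spot median −0.44). All 7 lymphatic genes were lower (median −0.88), 2 of them at an unadjusted p under 0.05, Lyve1 (−1.29) and Ccl21a (−0.99). With replicate 2 kept 6 of the 7 were lower, the median was −0.54 and 0 had an unadjusted p under 0.05. Lyve1 had 4.35 at 24 h, against 5.57, 3.13 and 5.70 at 9 h, so replicate 2 was below the 24 h value.

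**Figure D3:**
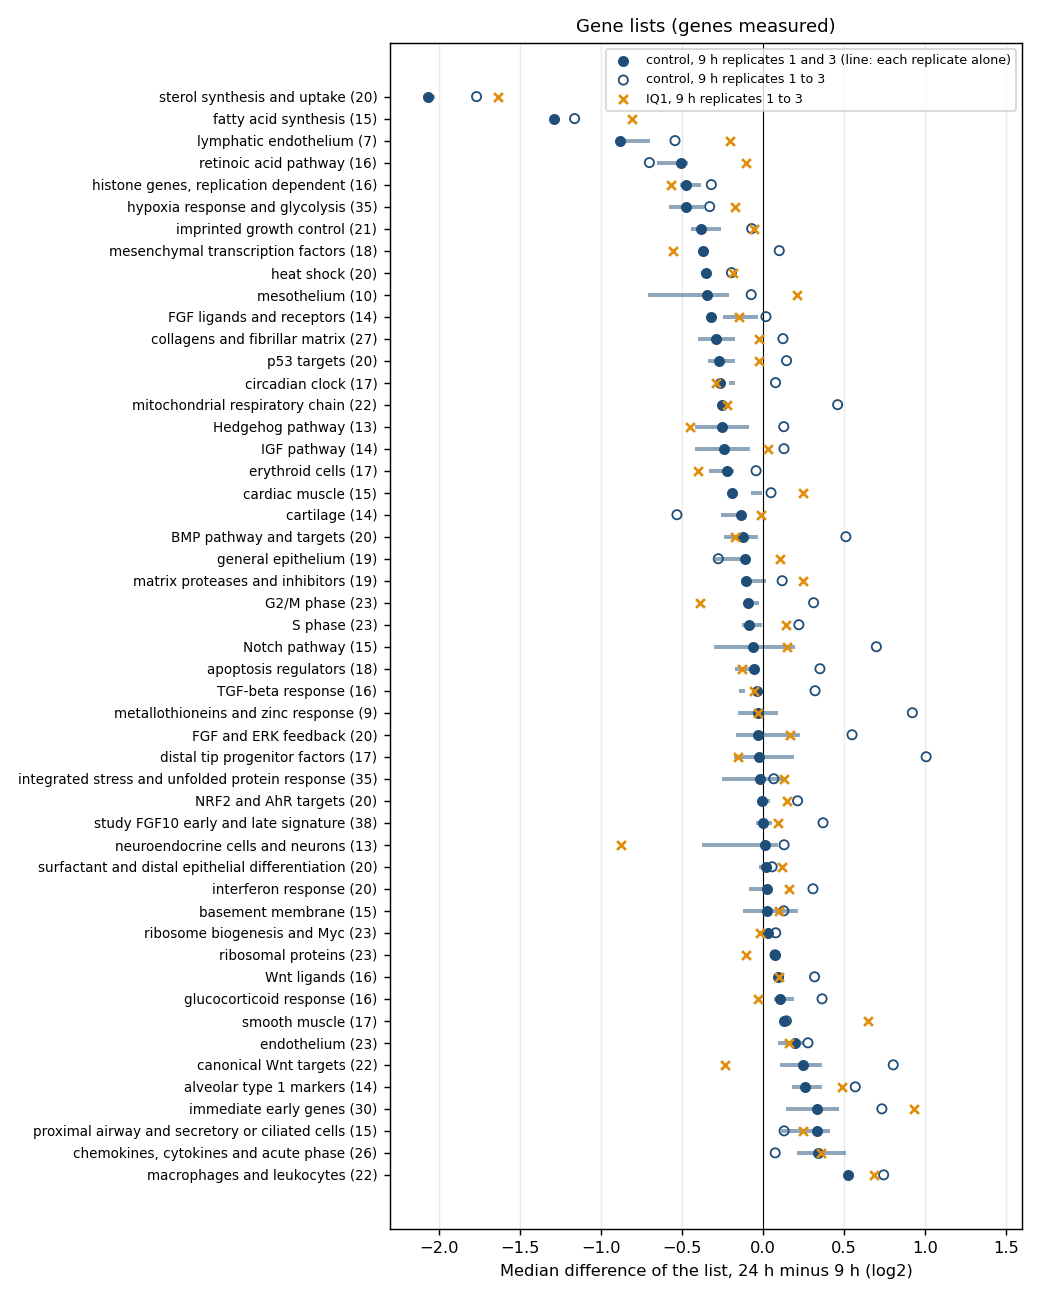
Median difference of each gene list, 24 h minus 9 h (x axis, log2), with the number of genes measured in brackets: control explants without 9 h replicate 2 (filled, the line joining the medians against replicate 1 and replicate 3 alone), with it (open), and IQ1 explants (cross). Sterol synthesis (−2.07) and fatty acid synthesis (−1.29) lie farthest to the left, and macrophages and leukocytes (0.53) at the right end of the filled points.

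Large differences outside the lists were found in single genes. Snhg12, a host gene of small nucleolar RNAs, rose by 6.18 (SE 0.31, adjusted p = 0.0187 in limma's 7-array fit over all genes), with 8.97 at 24 h, against 2.62, 4.03 and 2.97 at 9 h. All 3 values at 9 h were below the lower quartile of the arrays, so the size of the rise is not exact. The median over its 2 spots gave 3.23 and did not pass. Ifi204, one of a cluster of closely related interferon-inducible genes, fell by 5.05 (SE 0.28, adjusted p = 0.0187), with 5.06 at 24 h, against 10.10, 9.28 and 10.12 at 9 h. Sycp1, a protein of meiotic chromosomes, had 3.73, against 8.24, 8.02 and 8.48, and the splicing factor gene Cwc22 had 8.07, against 11.97, 11.45 and 11.92. Slc25a17, a peroxisomal carrier, had 13.46, against 9.89, 7.34 and 9.70, and Dppa5a, a gene of pluripotent cells, had 10.17, against 6.45, 3.3 and 6.47. These 4 passed in the fit of brighter genes (adjusted p = 0.0194, 0.00977, 0.00554 and 0.0234). The mean of Dppa5a over the arrays at 9 h was below the cut for that fit, so it entered through its 24 h values. Over all genes its adjusted p in limma's 7-array fit was 0.144. In each of the 6 genes the 24 h IQ1 array was also on the same side of all 3 IQ1 arrays at 9 h.

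Some of these genes are known to differ between inbred strains of mice, and others with that property were looked at after their values were seen. Cwc22 varies in copy number between strains. The adult β-globin locus carries Hbb-bt with a partner gene in C57BL strains and Hbb-b1 with Hbb-b2 in many others. Hbb-bt had 11.83 at 24 h, against 10.38, 4.60 and 8.57 at 9 h (2.35, unadjusted p = 0.0348), and Hbb-b1 had 9.00, against 10.86, 7.58 and 11.83 (−2.35, unadjusted p = 0.00188). Over IQ1 arrays the differences were 2.16 and −3.54. These genes are near-identical copies, so a spot may read more than 1 of them. Nnt, a mitochondrial transhydrogenase that carries a deletion in C57BL/6J, had 9.17 at 24 h, against 10.32, 7.88 and 10.26 at 9 h (−1.11, unadjusted p = 0.00665). The labels give 1 strain for all 8 arrays, and whether the lungs of the 2 experiments differed in genetic background was not tested.

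**Figure D4:**
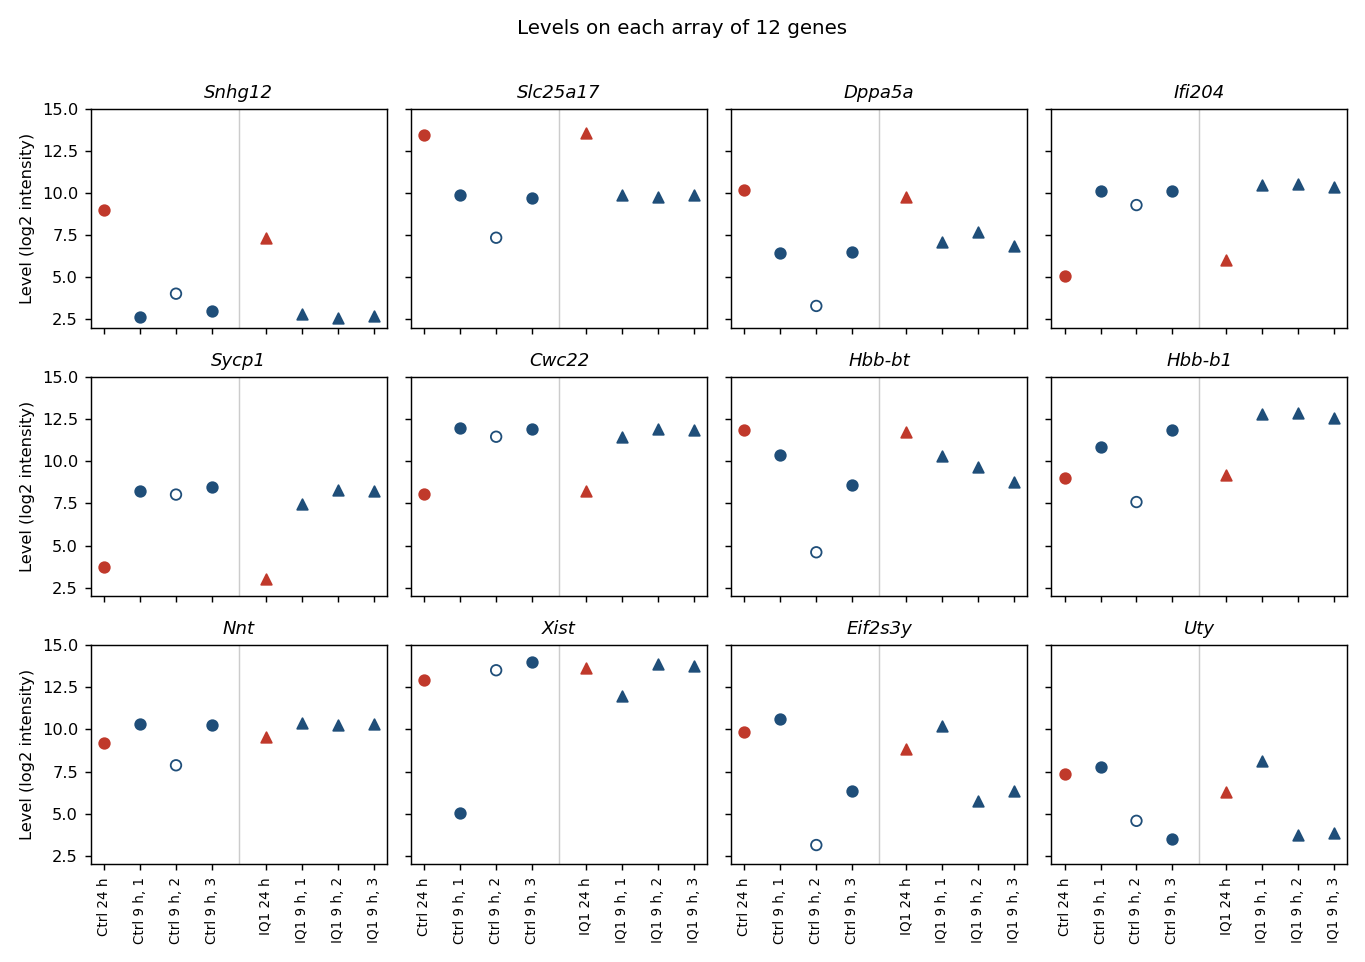
Levels (y axis, log2 intensity) of 12 genes on each of the 8 arrays, control explants as circles (9 h replicate 2 open) and IQ1 explants as triangles, 24 h in red and 9 h in blue. Snhg12 (8.97 against 2.62 to 4.03) and Ifi204 (5.06 against 9.28 to 10.12) separate the 2 times in controls, while Xist, Eif2s3y and Uty differ among the 9 h arrays of a group.

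Of the remaining genes named by rule, Cxadr, an adhesion protein of epithelial junctions, had 10.38 at 24 h, against 7.999, 3.75 and 8.26 at 9 h (2.25, spot median 0.73), and the calcium channel gene Cacna1s had 11.01, against 9.29, 8.81 and 9.20. Ly75, an endocytic receptor of dendritic cells, differed by 1.84 (spot median 0.54), Fyb, an adaptor protein of blood cells, by 1.70, and the uncharacterised Gm16367 and Gm32755 by 2.03 and 2.05. All 6 lay above every 9 h replicate, which the rule that named them required. Ly75, Gm16367 and Gm32755 counted as brighter through their 24 h values, their means over the arrays at 9 h being below the cut. Dusp16, a phosphatase that acts on JNK, had 7.43, against 10.17, 8.47 and 10.30 (−2.81, spot median −1.39). Rgs5, a marker of pericytes, had 7.81, against 9.88, 8.37 and 9.66 (−1.96, adjusted p = 0.0482 in the fit of brighter genes).

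The IQ1 explants share no array with the controls and were cultured in the same 2 experiments, so their own difference between 24 h and 9 h can be set beside that of the controls. It had the same sign in 67.5% of all genes and in 80.2% of the 2940 genes with a control difference of at least 1. Among the 797 of these that were brighter it was 95.2%. For 40 of the 41 genes of the brighter fit the sign was the same. Across the 12152 brighter genes the correlation was 0.71, a description across genes, which are not independent replicates and share platform and experiments. Sterol genes had a median of −1.64 in IQ1 explants and −2.07 in controls, fatty acid genes −0.81 and −1.29, and immediate early genes 0.93 and 0.33.

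A test of the difference between the 2 time differences passed for 0 genes in limma (7 and 8 arrays). At an unadjusted p under 0.05 it held 990 genes (4.07%) with 7 arrays and 76 with 8. The exception in sign among the 41 was Ppp1r3c, a subunit that directs a phosphatase to glycogen. In controls it had 9.64 at 24 h, against 7.93, 4.09 and 7.73 at 9 h (1.82). In IQ1 explants it had 7.39 at 24 h, against 7.43, 7.63 and 7.51 at 9 h. Immediate early genes held 6 of 30 at an unadjusted p under 0.05 in that test, each with the higher difference in IQ1 explants. Fosb, with 10.74 in the 24 h IQ1 array and 8.07 in the 24 h control, was 1 of them. The count of 6 is that of the 7 arrays. With replicate 2 kept the control median of that list was 0.73, against 0.93 in IQ1 explants.

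**Figure D5:**
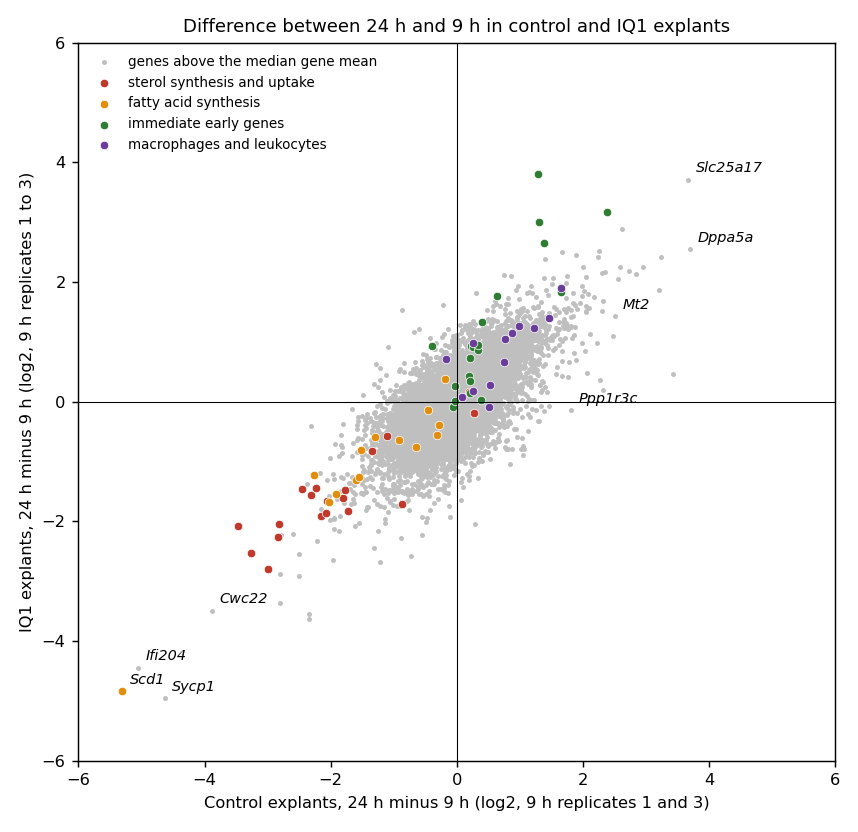
Difference between 24 h and 9 h (log2) in control explants (x axis, 9 h replicates 1 and 3) and in IQ1 explants (y axis, 9 h replicates 1 to 3) for the 12152 genes above the median gene mean (grey), with 4 gene lists in colour. Sterol and fatty acid genes lie mostly in the lower left, and Ppp1r3c (1.82 in controls, −0.14 with IQ1) lies off the diagonal.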

How the data were processed

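RNA was amplified as cDNA from little material, labelled with Cy5 and hybridised to Agilent mouse arrays. The deposited table holds log2 intensities, 1 per spot and array, which the authors made by NormExp background correction, log transformation and quantile normalisation in limma. Amplification adds error to weak signals, and quantile normalisation hides differences in total signal. Of 62976 spots, 43941 could be named (33708 by accession, 9763 by symbol, 463 by synonym, 7 as listed), 8 were left out for a missing value, and each of 24304 genes was represented by its brightest spot over the 8 arrays. No per-sample column was left out.

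Differences, 24 h minus 9 h, were tested with limma 3.58.1 in R 4.3.3 (lmFit over all 4 groups, eBayes, Benjamini-Hochberg over all genes, adjusted p under 0.05), over 8 arrays and over 7 without 9 h control replicate 2. The step was tested on simulated data. The sources used here do not say whether the replicates came from separate litters, so p-values measure only the spread between these samples, and their number limits the precision. Genes above the median gene mean (6.72, each mean taken over all 8 arrays) were also fitted alone. Named genes were the 12 higher and 12 lower ones of smallest p among these brighter genes whose 24 h value lay outside all 3 controls at 9 h, and 4 per list. The defining genes of a list, and genes said to be picked after their values were seen, were named besides. Members and lists were chosen with earlier results of these data known. Alternatives were other spots per gene, cyclic loess, array weights, an intensity trend with a robust prior, control arrays only, a fold threshold and each 9 h array left out.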

Additional observations from a re-analysis of the deposited data

How the results depend on the processing

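Over all 8 arrays 0 genes passed, 138 passed with array weights (70 higher, 68 lower), and leaving out 1 replicate at a time gave 0 to 2, the 2 being without 9 h control replicate 2. Over 7 arrays 2 passed. There control arrays alone gave 0, the median over spots 1, array weights 10, an intensity trend with a robust prior 99, the fit of brighter genes 41, and leaving out any 1 further array at 9 h, control or IQ1, 0. Adjusting the fit over all genes for the brighter ones alone, a setting chosen after seeing the data, gave 1. Of the 41 genes of the brighter fit, 39 were among the 99, 38 among the 138 and 5 among the 10. Where a count fell after an array was left out, fewer samples were tested. The cause of the other shifts was not tested. The difference of the time differences gave 0 genes in every setting run.

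Some named genes changed sign. With the median over spots Ebp had −0.36, Mvk −0.11 and Uty −0.11. With 9 h control replicate 2, an addition chosen after seeing the data, Fgf10 had 0.11, Foxf1 0.10, Hba-a1 0.073 and Hbb-y 0.021. Against 9 h replicate 3 alone Xist had −1.06, and against replicate 1 alone 7.91. Eif2s3y had 3.49 and −0.82 in these 2 settings, and Uty 3.91 and −0.36. The fatty acid genes Acaca, Acacb, Elovl1 and Elovl5 were lower without 9 h control replicate 2 and higher with it. Their sign in the other settings was not checked gene by gene. The other named genes kept their sign in the alternatives run.

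No paired analysis was possible because the control groups at 24 h and 9 h share only replicate number 1. The 24 h values come from 1 pooled array, so the spread between lungs at 24 h is unknown, and spot background was not used, so weak signals cannot be told from background.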

Other observations

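Olfactory and vomeronasal receptor genes and major urinary protein genes, families best known from other organs, were higher at 24 h more often than lower. These families were picked after their values were seen. Of 1098 olfactory receptor genes 70.1% were higher in the 24 h control, with a median difference of 0.36. This stands against 50.4% of all genes and 53.7% of the 6076 genes with the lowest mean. Only 79 of the 1098 olfactory receptor genes were above the median gene mean. Their median level was 4.49 at 24 h, against 4.03, 4.22 and 4.12 at 9 h, and in IQ1 explants their median difference was 0.30. Such levels are near the lower quartile of the arrays, 4.34, and cannot be told from background. Of 265 vomeronasal receptor genes 67.9% were higher (median 0.36), and only 13 were above the median gene mean. All 12 major urinary protein genes, near-identical copies whose spots may read each other, were higher, with a median difference of 2.00 in controls and 1.80 in IQ1 explants. Their median level in controls was 6.98 at 24 h, against 4.63, 4.87 and 4.97 at 9 h.

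Genes were split by mean into sets of 6076. By their medians, differences exceeded the gap between 9 h replicates 1 and 3 in every set but the lowest. In the 6076 genes with the lowest mean, the median size of the difference between 24 h and 9 h was 0.47 and that of the gap 0.49. In the next set these were 0.51 and 0.37, and in the one above it 0.37 and 0.21. In the 6076 with the highest mean they were 0.26 and 0.11. The difference is taken from the mean of replicates 1 and 3, whereas the gap lies between single arrays. The sizes are therefore not on an equal footing, and similar values do not show that a difference was absent.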
